A study of Mus musculus with 6 samples.

Results

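The core histone genes examined here are the 62 gene symbols of the deposited table, out of 24410, that begin with Hist, a cluster number and h2a, h2b, h3 or h4. The rule uses the name alone, but it was chosen with earlier results of these data known. By protein class there are 18 H2A, 19 H2B, 12 H3 and 13 H4 genes, and by the cluster number in the symbol there are 48 in cluster 1, 10 in cluster 2, 3 in cluster 3 and 1 in cluster 4. Expression was measured by RNA sequencing in CD41+ cells from 2 groups, Txnip-/- mice (KO 1 to KO 3) and wild-type mice (WT 1 to WT 3), all C57BL/6 and 5 months old per the labels. Lineage-negative marrow cells of both groups had been expanded in culture with cytokines for 3 days before the sort. CD41 is an integrin subunit that marks the megakaryocyte lineage, and the study asked what loss of Txnip, an inhibitor of thioredoxin, changes in those cells. The labels do not say whether the 3 libraries of a genotype came from 3 mice, how the Txnip allele was made, or whether it was deleted in all tissues.

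Core histones form the protein spool of the nucleosome, on which DNA is wound: pairs of H3 and H4 make its centre and pairs of H2A and H2B flank it. Most of their genes are active when DNA is replicated, and their short, intron-less mRNAs end in a conserved stem-loop in place of a poly(A) tail. The stem-loop is bound by Slbp, the stem-loop binding protein, which serves in processing, translation and decay of the mRNA. Megakaryocytes replicate their DNA repeatedly without dividing, so demand for histones is part of their development.

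The stem-loop is shown first because it is what these mRNAs share beyond their coding sequence. It was searched, on the transcript strand, as 16 bases made of a 6-base arm that starts with GG, a 4-base loop that starts with TT, and the reverse complement of the arm, after the stop codon of GENCODE transcripts on GRCm38. Of 44 members with at least 60 bases annotated after the stop, 38 held the pattern, as did 2 more with a shorter annotated end. Among all coding transcripts with at least 16 bases after the stop, 128 of 44343 held it (0.289%). This background counts transcripts, not genes, and includes those of the members. In the members the pattern began between 22 and 59 bases after the stop. In the forms below, written 5′ to 3′ as DNA, capitals mark the paired 6-base arms of the stem and lower case the 4-base loop.
form in 10 H2A, 8 H2B and 5 H3 genes: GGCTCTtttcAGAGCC
form in 2 H2B and 3 H3 genes: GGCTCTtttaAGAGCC
form in 1 H2A gene, Hist2h2ac: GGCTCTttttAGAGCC
form in 7 H4 genes: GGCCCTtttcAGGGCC
form in 2 H4 genes, Hist1h4i and Hist2h4: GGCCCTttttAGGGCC
form in 2 H4 genes, Hist1h4b and Hist1h4j: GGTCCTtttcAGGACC
All H2A, H2B and H3 forms found had the stem GGCTCT with AGAGCC, and none of the H4 forms had it. The pattern was not in the annotated ends of Hist1h2bc, Hist1h2bq, Hist1h2br, Hist1h3g, Hist1h4a and Hist2h2be.

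Promoters were read from RefSeq (GRCm38.p6) for 56 members as the 250 bases before the annotated start, and searched on both strands for 4 short motifs. CCAAT was present in all 18 H2A and all 16 H2B promoters, in 8 of 10 H3 promoters and in 3 of 12 H4 promoters, against 33.8% of 32851 promoters in the genome. The octamer ATTTGCAT, known from H2B promoters, was present in 7 H2A, 7 H2B, 0 H3 and 0 H4 promoters, against 1.60% of all promoters. H2A and H2B genes often stand head to head, and their windows then overlap. GGTCC, searched for as a motif of H4 promoters, was present in 11 of 12 H4 promoters and in 24 of 56 members, against 39.8% of all promoters. TATAAA was present in 25 of 56 members, against 12.4% of all promoters. None of the 4 contains another on either strand. The promoters of 3 genes on which the results below turn are given with these motifs in capitals, in either orientation.
Hist2h2ac promoter, chr3:96220881-96221130, minus strand: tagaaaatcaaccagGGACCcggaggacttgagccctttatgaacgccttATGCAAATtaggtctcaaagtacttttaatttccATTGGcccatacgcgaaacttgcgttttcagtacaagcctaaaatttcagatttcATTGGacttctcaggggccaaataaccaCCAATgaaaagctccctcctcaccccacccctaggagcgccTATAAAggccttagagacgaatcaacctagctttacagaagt
Hist1h2bb promoter, chr13:23746484-23746733, plus strand: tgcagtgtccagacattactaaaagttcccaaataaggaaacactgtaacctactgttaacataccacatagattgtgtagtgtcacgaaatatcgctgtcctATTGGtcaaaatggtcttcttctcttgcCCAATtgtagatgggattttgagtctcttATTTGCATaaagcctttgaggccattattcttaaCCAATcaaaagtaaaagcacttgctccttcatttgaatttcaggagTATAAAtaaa
Hist1h4c promoter, chr13:23698459-23698708, minus strand: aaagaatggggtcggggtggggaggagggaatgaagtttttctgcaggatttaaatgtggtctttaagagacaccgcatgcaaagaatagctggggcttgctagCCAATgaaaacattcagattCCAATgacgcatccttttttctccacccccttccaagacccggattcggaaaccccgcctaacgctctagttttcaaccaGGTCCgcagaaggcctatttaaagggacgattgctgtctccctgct
The H2A and the H2B promoter each held TATAAA once, CCAAT 3 times and the octamer once. The H4 promoter held CCAAT 2 times and neither TATAAA nor the octamer. GGTCC stood once in the H4 promoter, once in the H2A promoter and 0 times in the H2B promoter.

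The deposited unit, FPKM, counts fragments per length of transcript and per sequencing depth of the library. Txnip was listed at 0, 0.04 and 0 FPKM in KO 1 to KO 3, against 112, 228 and 143 FPKM in WT 1 to WT 3. Itga2b, which encodes CD41, lay between 92.8 and 152 FPKM in KO and between 83.2 and 111 FPKM in WT, and the platelet chemokine Pf4 between 476 and 1545 in KO and between 465 and 1435 in WT. Of markers of other blood cells, the summed FPKM of 10 granulocyte genes was 3886 to 8871 in KO and 5854 to 7464 in WT, of 10 monocyte genes 1427 to 2253 in KO and 1035 to 2251 in WT, of 10 mast cell genes 679 to 1479 in KO and 1088 to 1628 in WT, and of 10 erythroid genes, with the globin Hba-a2 at 0 throughout, 115 to 164 in KO and 160 to 223 in WT. WT 2 stood apart: its FPKM summed to 1131641, against 715205 to 805730 in the other libraries, and the short RNAs Rpph1 and Rmrp took 30.4% of it, against 10.7% to 20.6% elsewhere. Depth, estimated from the spacing of low values and therefore approximate, was 13500000 fragments in KO 1, 22700000 in KO 2 and 25600000 in KO 3, against 19200000 to 19900000 in WT. Values without WT 2, and without both KO 2 and WT 2 (pair 2), are therefore given beside those of the core histone classes and clusters and of most named core histone genes.

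Core histone mRNAs were abundant in every library. Their summed FPKM was 54899 in KO 1, 50488 in KO 2 and 51577 in KO 3, against 65192 in WT 1, 80867 in WT 2 and 53634 in WT 3. WT 3 lay inside the KO range, below KO 1, so the groups overlapped, and WT 1 and WT 2 lay above every KO library. The KO mean, 52321 ± 2297, was 78.6% of the WT mean, 66564 ± 13668 (SD, n = 3 each). Deviations from the group mean correlated across genes between libraries of the same number (r of 0.81, 0.59 and 0.38). Within these pairs KO was at 84.2%, 62.4% and 96.2% of WT. As a share of all FPKM, core histone genes made up 7.65%, 6.27% and 7.21% in KO, against 9.05%, 7.15% and 7.29% in WT, so that on this scale KO 1 lay above WT 2 and WT 3. With Rpph1 and Rmrp left out of the total, the shares were 9.63%, 7.04% and 8.49% in KO and 10.7%, 10.3% and 8.17% in WT.

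**Figure D1:**
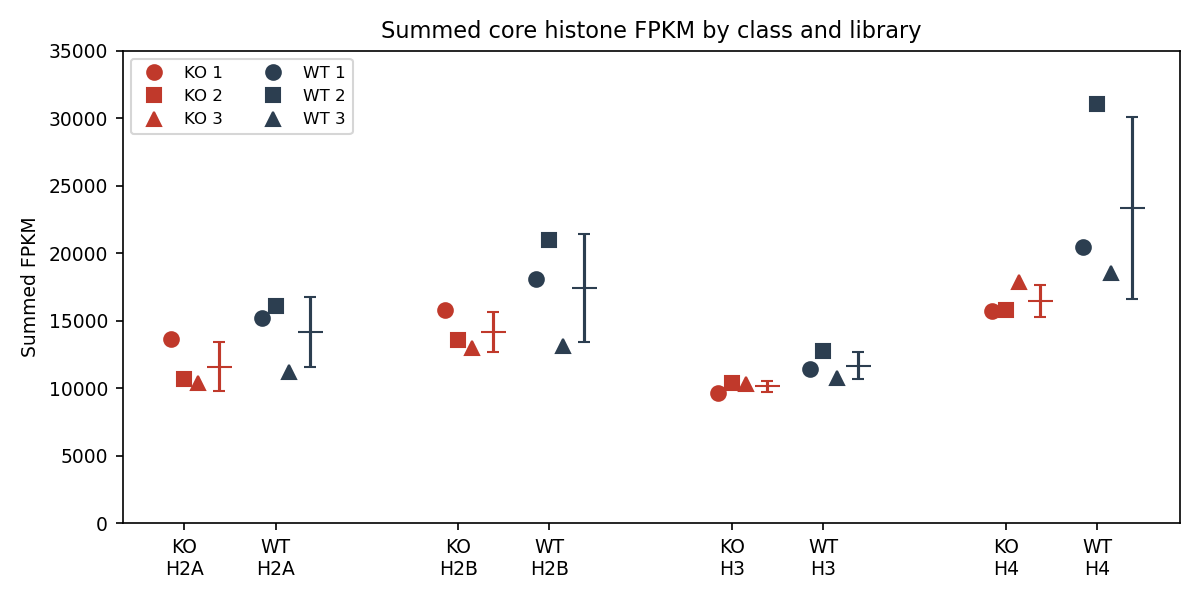
Summed FPKM of the genes of each core histone class in each library, with the mean and SD of each genotype beside the points (n = 3). The H4 sum of WT 2, 31050 FPKM, is the highest point, and the KO sums of H4 lie between 15753 and 17862.

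Of the 62 genes, 60 passed the filter of at least 1 FPKM in at least 3 libraries, and none of them through one genotype only. The other 2, Hist1h2aa and Hist1h2ba, which encode the testis forms of H2A and H2B, were listed at 0 in every library. Mean levels over the 6 libraries ran from 1.89 FPKM for Hist2h2aa2 to 3454 FPKM for Hist1h4d, and 51 genes exceeded 100 FPKM. In limma's test across 11249 genes, with Benjamini-Hochberg adjustment, 0 of the 60 core histone genes passed the threshold of 0.05 in either direction (lowest adjusted p = 1.00). Over all genes 1 gene was called lower, Txnip, which is 0.00889%, and 1 gene was called higher, also 0.00889%. At an unadjusted p under 0.05, 1 core histone gene was lower in KO and 0 were higher, against 0.267% of all genes lower and 0.409% higher. With the library number as a block, 0 of 60 passed after adjustment (lowest adjusted p = 0.38, for Hist2h2ac), against 0.00889% of all genes lower and 0.0178% higher. In that fit 13 were lower at an unadjusted p under 0.05, against 2.28% of all genes, and 0 were higher, against 4.66% of all genes.

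Most differences had the same sign. The log2 difference, KO minus WT on log2(FPKM + 1), was below 0 for 57 of 60 core histone genes, against 36.6% of all tested genes. Among the 57, Hist1h4n and Hist2h3c1 had a higher mean FPKM in KO, with a listed 0 in some libraries. The median difference was -0.30 for the core histone genes and 0.06 for all tested genes, whose quartiles were -0.06 and 0.19. By pair, the median of the core histone genes was -0.20, -0.58 and -0.03, and 54, 58 and 33 of the 60 were lower in KO. Values were lower in KO in all 3 pairs for 29 genes, against 8.68% of all tested genes. For 8 genes all KO libraries lay below all WT libraries, against 1.03% of all tested genes, and for 0 genes above, against 3.32%. The 8 are Hist2h2ac, Hist1h2be, Hist2h3b and 5 H4 genes (Hist1h4a, Hist1h4c, Hist1h4d, Hist1h4j and Hist1h4k), of which Hist1h2be and Hist1h4k are named after their values were seen. These genes share libraries and, in part, reads, so they are not independent observations. In a bulk sample, fewer cells in S phase, less histone RNA per cell and another mix of cells cannot be told apart. No core histone gene was called, and their median was -0.17 without WT 2. Scaling each library to a common FPKM sum moved the median of all tested genes to 0.22, and 47 of 60 core histone genes were then below 0; relative to all genes their median was -0.34, against -0.36 on the deposited scale. After quantile normalization 49 of 60 were below 0, and the median relative to all genes was -0.13.

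The highest values lay mostly in 2 libraries. WT 2 held the highest value for 34 of the 60 genes and WT 1 for 20, whereas the lowest value was in KO 2 for 23 genes, in KO 3 for 14, in KO 1 for 12 and in WT 3 for 10. Relative to each gene's mean over the 6 libraries, the median deviation of the core histone genes was 0.03, -0.21 and -0.20 in KO 1 to KO 3, against 0.24, 0.36 and -0.13 in WT 1 to WT 3. In WT 2 all tested genes had a median deviation of -0.15, so its core histone genes stood higher while most genes stood lower. Without WT 2, 55 of 60 differences were below 0 and the median was -0.17 (all tested genes 0.01). Without both KO 2 and WT 2, an alternative chosen after seeing the data, 48 of 60 were below 0 and the median was -0.16 (all tested genes 0.05). Rpph1, the RNA of RNase P, which carries no poly(A) tail either, was also highest in WT 2, at 261023 FPKM. Rmrp was highest in WT 2 as well, at 83135 FPKM, but KO 1 was near it, at 77062 FPKM. Whether the RNA was selected by poly(A) or by depletion of ribosomal RNA is not given in the sources used here, and the part of either in these values was not tested.

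**Figure D2:**
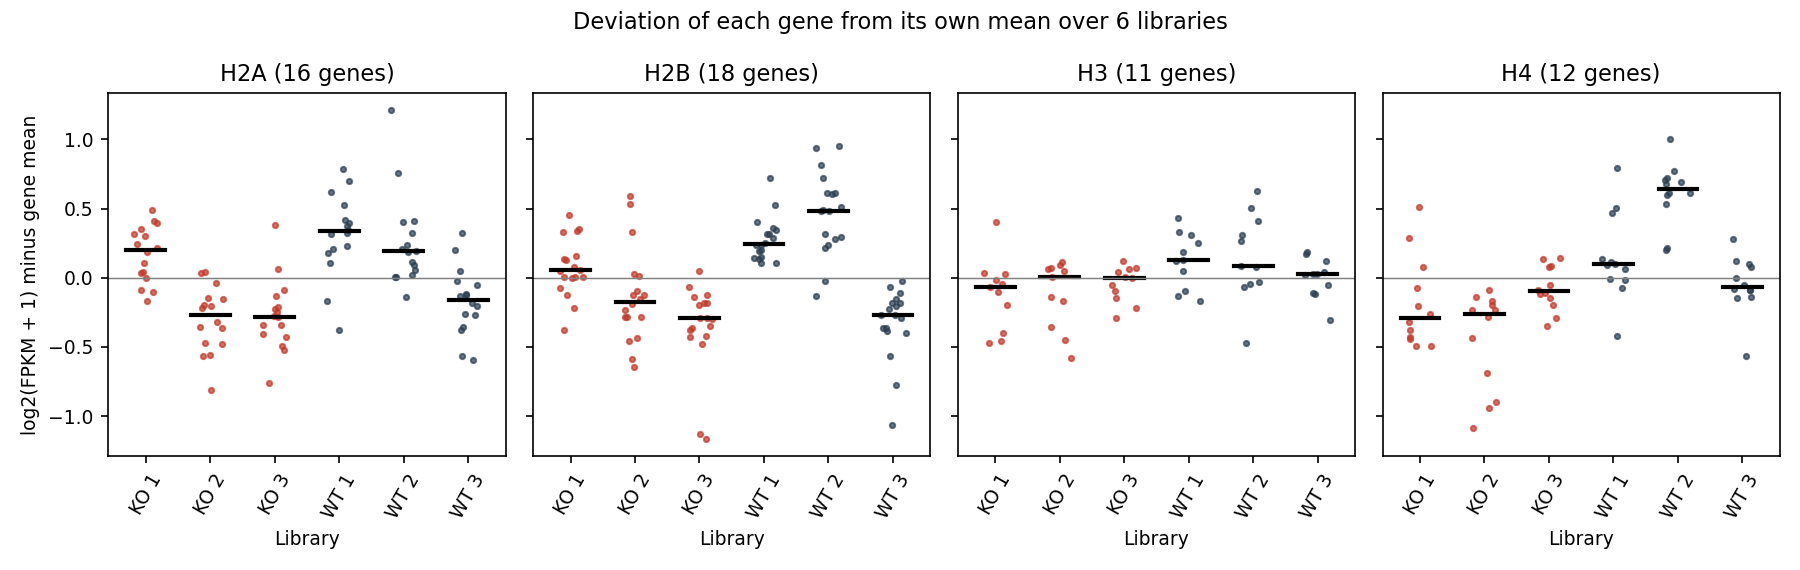
Deviation of each core histone gene from its own mean over the 6 libraries, on log2(FPKM + 1), by class and library, with each point 1 gene and each black bar the median; Hist1h4n, Hist2h3c1 and Hist2h2aa2, which fell under 1 FPKM in some library, are left out. WT 2 stands above the other libraries in H4 and H2B, WT 1 is highest in H2A, and WT 3 lies near or within the KO range in each class.

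H4, the most conserved core histone, showed the lowest class median. All 13 H4 genes had a difference below 0, from -0.62 for Hist2h4 to -0.30 for Hist1h4i, with a median of -0.48. For 5 of the 13 all KO libraries lay below all WT libraries, against 1.03% of all tested genes. These 5 are among the 8 core histone genes without overlap named above. The class sum was 15753, 15803 and 17862 FPKM in KO, against 20441, 31050 and 18554 FPKM in WT, so that the KO mean was 70.6% of the WT mean. H4 genes supplied 31.5% ± 2.98 of the core histone FPKM in KO and 34.8% ± 3.52 in WT (SD, n = 3 each), and these ranges overlapped. Without WT 2 the H4 median was -0.26, and without both KO 2 and WT 2 it was -0.20. WT 2 was the highest library for 10 of the 13 genes.

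Most of the H4 FPKM, 62.4%, came from 4 genes, Hist1h4d, Hist1h4c, Hist1h4h and Hist1h4m. Hist1h4d had 2814, 2936 and 2758 FPKM in KO, against 3706, 5141 and 3369 FPKM in WT. Its groups did not overlap, and the log2 difference was -0.50 (SE 0.34), or -0.32 without WT 2 and -0.34 without pair 2. Hist1h4c, whose promoter is printed above, had 2213, 2645 and 2885 FPKM in KO, against 2953, 6224 and 2921 FPKM in WT. WT 2 was far above the rest, while WT 1 and WT 3 exceeded KO 3 only narrowly. Its difference of -0.56 (SE 0.40) became -0.19 without WT 2 and -0.22 without pair 2. Hist1h4h had 2209, 2343 and 2547 FPKM in KO, against 2959, 4497 and 2510 FPKM in WT, where WT 3 lay inside the KO range. Hist1h4m had 2101, 2022 and 2879 FPKM in KO, against 2696, 4362 and 2874 FPKM in WT, and KO 3 there exceeded both WT 1 and WT 3. Hist1h4h differed by -0.45 (SE 0.35), or -0.21 without WT 2 and -0.20 without pair 2. Hist1h4m differed by -0.49 (SE 0.35), or -0.27 without WT 2 and -0.18 without pair 2.

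Among the less abundant H4 genes, Hist1h4a had 719.9, 793 and 846 FPKM in KO, against 1013, 1595 and 1050.1 FPKM in WT. All KO libraries were lower than all WT libraries, and the difference was -0.60 (SE 0.28, unadjusted p = 0.060 in limma), or -0.39 without WT 2 and -0.40 without pair 2. Hist1h4j had 601, 297 and 548 FPKM in KO, against 608, 826 and 693 FPKM in WT. Its groups were separated by only a few FPKM between KO 1 and WT 1, and the difference of -0.61 (SE 0.32) became -0.49 without WT 2 and -0.18 without pair 2. Hist2h4 had 439, 144 and 242 FPKM in KO, against 532, 357 and 291 FPKM in WT, lower in KO in each pair but with overlapping groups (-0.62, SE 0.41). Leaving out KO 2 alone gave -0.23, and the difference was -0.66 without WT 2 and -0.27 without pair 2. Hist4h4, the only member of cluster 4, had 657, 288 and 571 FPKM in KO, against 762, 815 and 363 FPKM in WT. It was lower in KO in pairs 1 and 2 and higher in pair 3, and its difference of -0.35 (SE 0.41) was -0.14 without WT 2 and turned to 0.22 without pair 2.

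**Figure D3:**
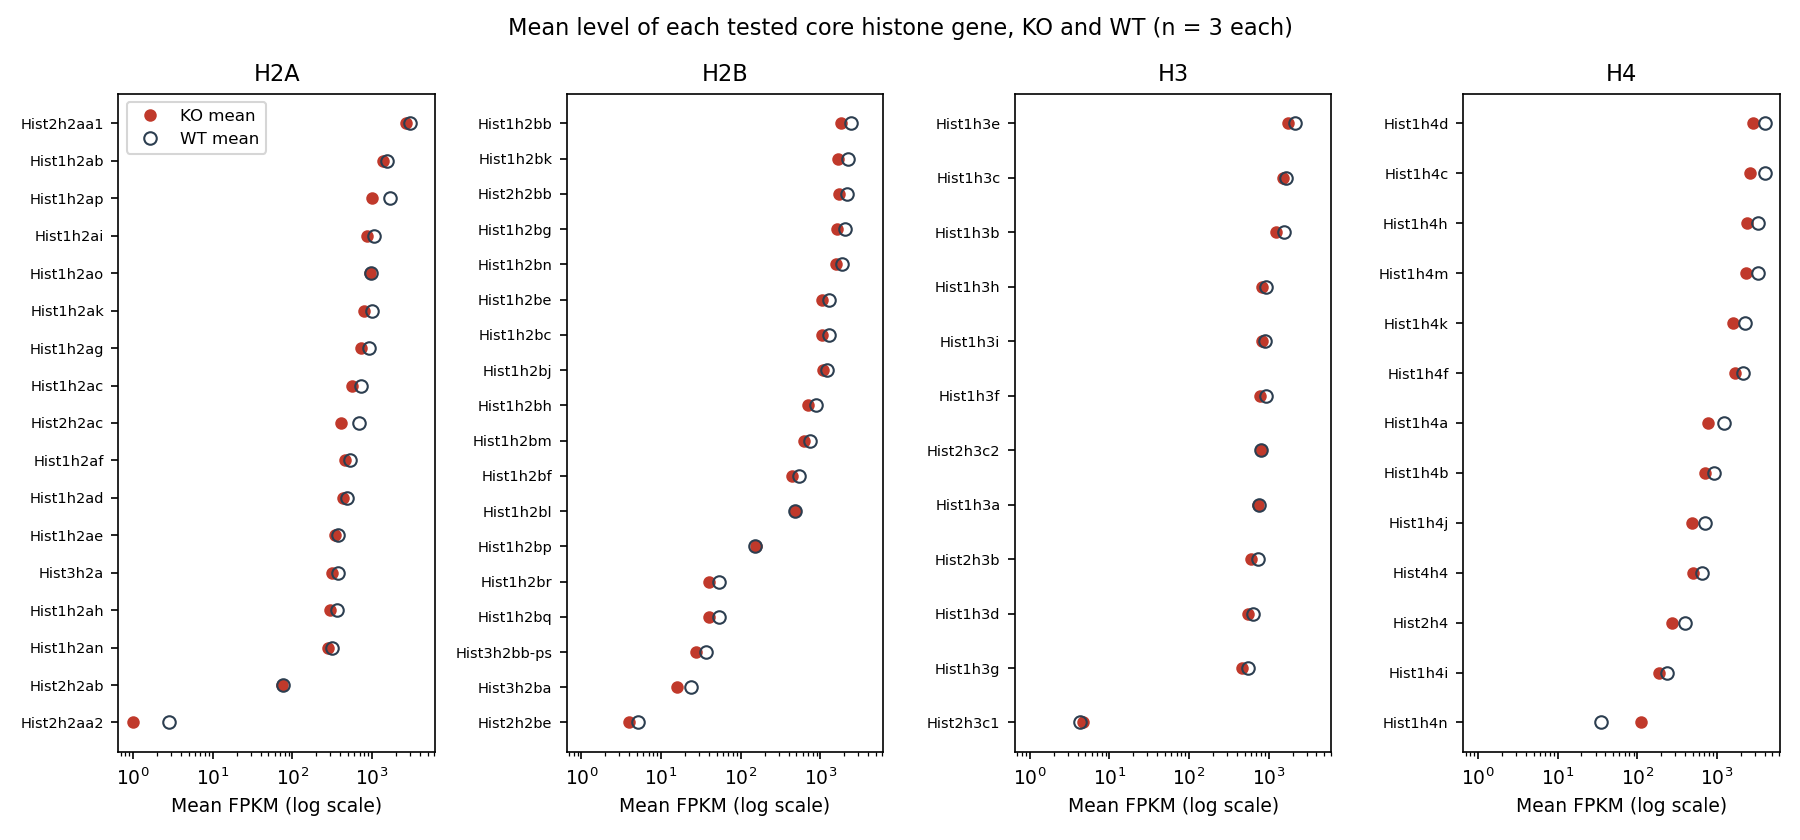
Mean FPKM, on a log scale, of each of the 60 tested core histone genes by class, with filled circles for KO and open circles for WT (n = 3 each), ordered by the mean over all libraries. The open circle lies to the right of the filled one in nearly every row. Hist1h4n, near the foot of H4, has 111 FPKM in KO and 35.1 FPKM in WT. Its KO values were 77.3, 257 and 0 FPKM.

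H2A, which pairs with H2B, had 16 of 17 tested genes below 0 and a median of -0.26, or -0.17 without WT 2 and -0.12 without KO 2 and WT 2. Its summed FPKM was 13665, 10693 and 10387 in KO, against 15184, 16081 and 11210 in WT, with KO 1 above WT 3. Hist2h2aa1 was the most abundant H2A gene, with 2912, 2440.0 and 2666 FPKM in KO, against 3283, 3232 and 2605 FPKM in WT (difference -0.18, SE 0.31, -0.13 without WT 2 and -0.070 without pair 2). Hist1h2ab had 1441, 1474 and 1182 FPKM in KO, against 1553, 1805 and 1266 FPKM in WT. The groups of both genes overlapped, and the difference of Hist1h2ab, -0.17 (SE 0.28), was -0.045 without WT 2 and -0.10 without pair 2, and turned to 0.012 when libraries were scaled to a common sum. Hist1h2ai had 986, 860.0 and 756 FPKM in KO, against 1083, 1267 and 872 FPKM in WT (difference -0.30, SE 0.27, -0.17 without WT 2 and -0.17 without pair 2).

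Hist2h2ac gave the smallest p of all core histone genes. It had 489.8, 296 and 444 FPKM in KO, against 896, 528 and 649 FPKM in WT. No KO library reached the lowest WT library, and KO was lower in every pair. The difference was -0.75 (SE 0.30, unadjusted p = 0.035, adjusted p = 1.00 in limma), and it was -0.93 without WT 2, -0.71 without pair 2, and between -0.53 and -0.93 when any 1 library was left out. WT 1, not WT 2, was its highest library. Among the members in which the stem-loop pattern was found, Hist2h2ac is the 1 gene with the form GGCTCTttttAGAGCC. Many other members have too few annotated bases after the stop to be searched. A link between this form and the level of the gene was not tested.

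H2B had 17 of 18 tested genes below 0 and a median of -0.31, or -0.14 without WT 2 and -0.12 without KO 2 and WT 2. The class sum was 15806, 13595 and 13007 FPKM in KO, against 18122, 20988 and 13107 FPKM in WT, and WT 3 lay below KO 1 and KO 2. WT 2 was the highest library for 14 of the 18 genes. Hist1h2bb, the most abundant, had 1924, 1817 and 1647 FPKM in KO, against 2179, 3550 and 1534 FPKM in WT. WT 3 was below every KO library, and the difference of -0.35 (SE 0.37) became -0.028 without WT 2 and -0.038 without pair 2. Hist1h2bk had 1642, 1752 and 1665 FPKM in KO, against 2247, 2664 and 1685 FPKM in WT, and only WT 3 fell inside the KO range (-0.36, SE 0.30, -0.21 without WT 2 and -0.24 without pair 2). Hist1h2bg had 1792, 1800 and 1277 FPKM in KO, against 1961, 2704 and 1458 FPKM in WT (-0.30, SE 0.34, -0.077 without WT 2 and -0.16 without pair 2). Hist2h2bb had 2071, 1373 and 1717 FPKM in KO, against 2251, 2637 and 1567 FPKM in WT, and its difference of -0.31 (SE 0.33) was -0.15 without WT 2 and turned to 0.0057 without pair 2.

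H3, which carries many of the marked lysines of chromatin, had 11 of 12 genes below 0, a median of -0.23, and -0.15 without WT 2 or -0.14 without KO 2 and WT 2. Its class sum was 9674, 10397 and 10322 FPKM in KO, against 11446, 12746 and 10764 FPKM in WT, and the KO mean was 86.9% of the WT mean. On the deposited scale H3 sums did not overlap between genotypes, although WT 3 exceeded KO 2 by little. With libraries scaled to a common FPKM sum they overlapped. WT 2, at 9059, then lay below KO 1 to KO 3, at 10844, 10378 and 11607. Hist1h3e had 1460, 2082 and 1744 FPKM in KO, against 1802, 2732 and 1954 FPKM in WT (-0.29, SE 0.32, -0.11 without WT 2 and -0.23 without pair 2). Hist1h3b had 988, 1422 and 1271 FPKM in KO, against 1211, 2102 and 1385 FPKM in WT (-0.33, SE 0.32, -0.094 without WT 2 and -0.21 without pair 2). In both genes library 2 was the highest of each genotype and KO was lower in each pair, with overlapping groups. Hist1h3c had 1488, 1599 and 1536 FPKM in KO, against 1732, 1686 and 1539 FPKM in WT, where WT 3 lay inside the KO range (-0.10, SE 0.27, -0.084 without WT 2 and -0.11 without pair 2). Hist1h3h had 759, 790.4 and 914 FPKM in KO, against 954, 844 and 993 FPKM in WT (-0.18, SE 0.24, -0.25 without WT 2 and -0.22 without pair 2).

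**Figure D4:**
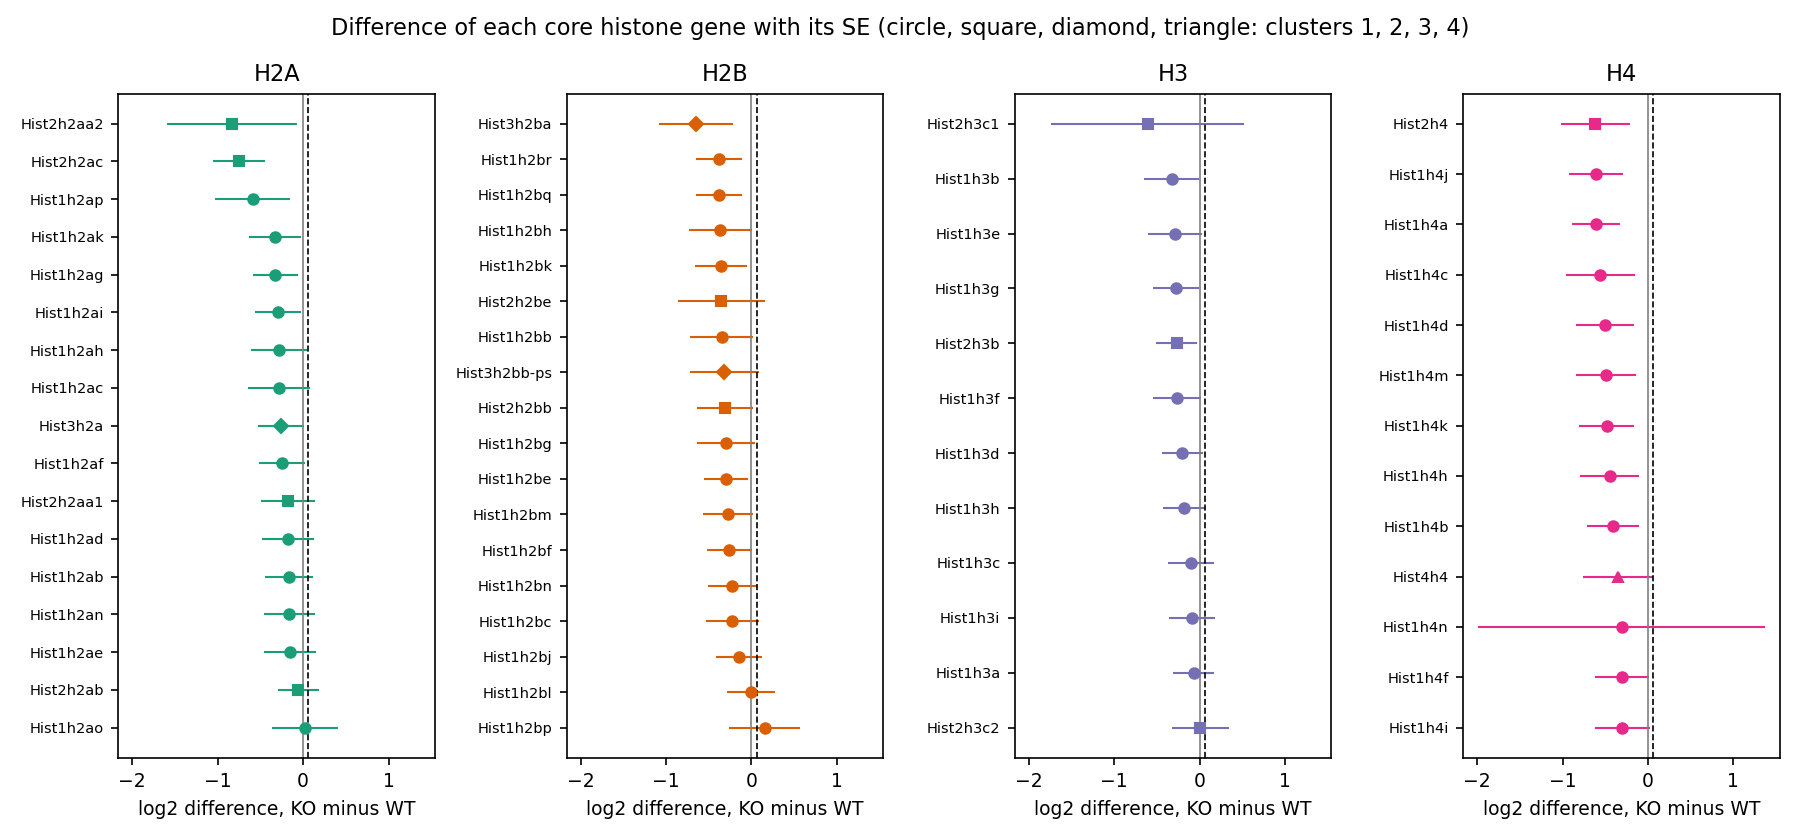
log2 difference (KO minus WT, on log2(FPKM + 1)) of each tested core histone gene with its SE as a bar, by class, with the marker shape giving the cluster; the dashed line marks the median of all tested genes, 0.06. All 13 H4 genes lie left of 0, and 3 genes lie right of it, Hist1h2bp at 0.15, Hist1h2ao at 0.02 and Hist2h3c2 at 0.01.

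On RefSeq the genes of clusters 1, 2, 3 and 4 lie on mouse chromosomes 13, 3, 11 and 6. The median difference was -0.29 for the 46 tested genes of cluster 1, -0.33 for the 10 of cluster 2, -0.32 for the 3 of cluster 3, and -0.35 for the gene of cluster 4. Cluster 1 supplied 85.8% ± 2.09 of the core histone FPKM in KO and 86.4% ± 1.85 in WT, and cluster 2 supplied 12.5% ± 1.66 in KO and 12.03% ± 1.69 in WT (SD, n = 3 each), which differ by less than the spread between libraries. Cluster 2 stands on the same chromosome as Txnip, with 49 RefSeq genes between them on GRCm38, of which 3 are protein-coding. Without WT 2 the medians of clusters 1 to 4 were -0.17, -0.20, -0.28 and -0.14. Without both KO 2 and WT 2 they were -0.16, -0.07, -0.17 and 0.22.

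The other genes of cluster 2 were mixed. Hist2h3b had 645, 519 and 664 FPKM in KO, against 689, 823 and 684 FPKM in WT, without overlap (-0.27, SE 0.24, -0.18 without WT 2 and -0.068 without pair 2). Hist2h3c2 had 1021, 567 and 806 FPKM in KO, against 1045, 556 and 788 FPKM in WT, nearly equal within every pair (0.01, SE 0.33, -0.23 without WT 2 and -0.00024 without pair 2). Hist2h2ab had 69.0, 57.3 and 96.5 FPKM in KO, against 65.7, 76.9 and 85.1 FPKM in WT (-0.06, SE 0.24, -0.043 without WT 2 and 0.12 without pair 2), with full overlap. Hist2h2be, an H2B gene known in mouse for its expression in olfactory neurons, was low, with 4.14, 6.48 and 1.21 FPKM in KO, against 4.45, 8.63 and 2.36 FPKM in WT. It was lower in KO in each pair, but its groups overlapped (-0.35, SE 0.51, 0.039 without WT 2 and -0.34 without pair 2). Hist2h3c1 was listed at 14.2, 0 and 0 FPKM in KO, against 7.76, 5.13 and 0 FPKM in WT (-0.61, SE 1.13, -0.26 without WT 2 and 0.40 without pair 2). Its mean was higher in KO, 4.74 FPKM against 4.30 FPKM in WT. Hist2h2aa2 was listed at 2.98, 0 and 0 FPKM in KO, against 6.30, 2.07 and 0 FPKM in WT (-0.83, SE 0.76, -0.77 without WT 2 and -0.44 without pair 2).

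In cluster 3, Hist3h2ba had 13.7, 26.6 and 7.69 FPKM in KO, against 20.1, 35.4 and 16.7 FPKM in WT. It was lower in KO in each pair, while library 2 was the highest of both genotypes (-0.65, SE 0.43, -0.35 without WT 2 and -0.78 without pair 2). Hist3h2a had 419, 265 and 268 FPKM in KO, against 452, 360.5 and 313 FPKM in WT (-0.26, SE 0.27, -0.28 without WT 2 and -0.17 without pair 2). Hist3h2bb-ps, named as a pseudogene of H2B, had 37.98, 21.8 and 22.7 FPKM in KO, against 43.4, 49.6 and 17.0 FPKM in WT (-0.32, SE 0.40, -0.037 without WT 2 and 0.10 without pair 2). WT 3 was its lowest library, so the groups overlapped.

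Several values of single genes depend on how reads were shared between near-identical copies. Within a class, coding sequences of the same length were 77.6% to 100% identical in H2A (median 96.4%), 82.9% to 100% in H2B (97.2%), 93.7% to 100% in H3 (97.2%) and 85.3% to 100% in H4 (93.9%), over 393, 381, 411 and 312 bases. The same coding sequence was shared within 5 pairs, Hist1h2ao with Hist1h2ap, Hist1h4m with Hist1h4n, Hist1h2bq with Hist1h2br, Hist2h2aa1 with Hist2h2aa2, and Hist2h3c1 with Hist2h3c2. Hist1h2ao had 1282, 791 and 766 FPKM in KO, against 1483, 826 and 603 FPKM in WT (0.02, SE 0.38, -0.041 without WT 2 and 0.067 without pair 2). Its copy Hist1h2ap had 1079, 1247 and 715 FPKM in KO, against 935, 2811 and 1256 FPKM in WT (-0.59, SE 0.44, -0.13 without WT 2 and -0.30 without pair 2). Summed, the pair had 2361, 2038 and 1481 FPKM in KO, against 2418, 3637 and 1859 FPKM in WT, lower in KO in each pair of libraries, with a log2 difference of -0.40.

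Hist1h4n was listed at 77.3, 257 and 0 FPKM in KO, against 49.96, 36.1 and 19.3 FPKM in WT. The KO mean was higher while its log2 difference was -0.31 (SE 1.68), because KO 3 was listed at 0. Summed with Hist1h4m, the values were 2179, 2279 and 2879 FPKM in KO, against 2746, 4398 and 2894 FPKM in WT, lower in KO in each pair of libraries but with KO 3 above WT 1, and the log2 difference was -0.43. Hist1h2bq and Hist1h2br had the same deposited value in every library, 45.3, 37.0 and 36.8 FPKM in KO and 56.6, 69.8 and 34.9 FPKM in WT, so they give 1 measurement and not 2. The summed differences of the Hist2h2aa1 and Hist2h3c2 pairs were -0.18 and 0.01. Hist1h2bp, the gene with the highest difference, 0.15 (SE 0.42, 0.44 without WT 2 and 0.31 without pair 2), had 180.4, 180.0 and 106 FPKM in KO, against 182, 201 and 67.8 FPKM in WT, higher in KO in pair 3 only.

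Genes that make, trim, store or degrade histone mRNA and protein had medians near 0. Of 19 genes of histone mRNA synthesis and 3′ end processing, 0 passed the test, 11 were below 0 and 8 above, with a median of -0.03. Slbp had 72.1, 83.7 and 97.4 FPKM in KO, against 80.3, 73.5 and 83.3 FPKM in WT (0.09, SE 0.20), and Npat, the coactivator of histone genes in S phase, had 14.6, 11.7 and 13.4 FPKM in KO, against 15.7, 13.2 and 13.8 FPKM in WT (-0.09, SE 0.21). Both were named for their role and not by the naming rule. The 3 of smallest p were the Sm proteins Snrpe (-0.37, SE 0.29), Snrpf (-0.29, SE 0.20) and Snrpg (-0.36, SE 0.27), which the U7 particle of histone processing shares with the spliceosome. Snrpe was highest in WT 2, at 598 FPKM, against 271 to 377 FPKM in KO and 307 and 431 FPKM in WT 1 and WT 3. Without WT 2 the differences were -0.13 for Snrpe, -0.34 for Snrpf, -0.21 for Snrpg, 0.035 for Slbp and -0.14 for Npat.

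Of 16 genes of histone mRNA decay 0 passed, 8 were below 0 and 8 above, with a median of 0.00. Upf1, the helicase recruited to histone mRNA when replication stops, differed by 0.30 (SE 0.36), the uridylyltransferase Zcchc6 by 0.31 (SE 0.28) and Lsm5, of the Lsm ring that binds the uridylated end, by -0.30 (SE 0.29). Of 24 histone chaperones and chromatin assembly genes 0 passed, 9 were below 0 and 15 above (median 0.02). They include Nasp, a chaperone of H3 and H4, at -0.19 (SE 0.18), Hat1, which acetylates new H4, at -0.32 (SE 0.25), and Hjurp, the chaperone of the centromeric H3, at 0.32 (SE 0.24). Without WT 2 the differences were -0.059 for Upf1, 0.33 for Zcchc6, 0.0094 for Lsm5, -0.20 for Nasp, -0.13 for Hat1 and 0.27 for Hjurp.

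Of 47 genes of S phase and DNA replication 0 passed, and the median was -0.03. Below 0 were 29 and above 0 were 18, against 36.6% of all tested genes below 0. For 4 of the 47 all KO libraries lay below all WT libraries, against 1.03% of all tested genes. For 0 of them all KO libraries lay above, against 3.32%. By pair the medians of these 47 genes were -0.27, 0.17 and 0.01, and those of the core histone genes were -0.20, -0.58 and -0.03. Lower in KO in pairs 1, 2 and 3 were 45, 13 and 23 of the 47. Of all 11249 tested genes, 5008, 4619 and 4721 were lower in these pairs. The 3 of smallest p were Rfc4, a clamp loader subunit, at -0.38 (SE 0.26), Tyms, thymidylate synthase, at -0.28 (SE 0.21), and Ccne2, a cyclin of the start of S phase, at -0.37 (SE 0.29). Without WT 2 they were at -0.17, -0.27 and -0.37, and without pair 2 at -0.11, -0.14 and -0.083. A list of 12 replacement histone variant genes (H2af symbols, H3f3a and H3f3b), added after the data had been seen, held 8 tested genes, 4 below and 4 above 0, with a median of 0.02. Most mRNAs of such variants are made outside S phase as well and carry poly(A) tails. Whether this bears on the values was not tested.

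**Figure D5:**
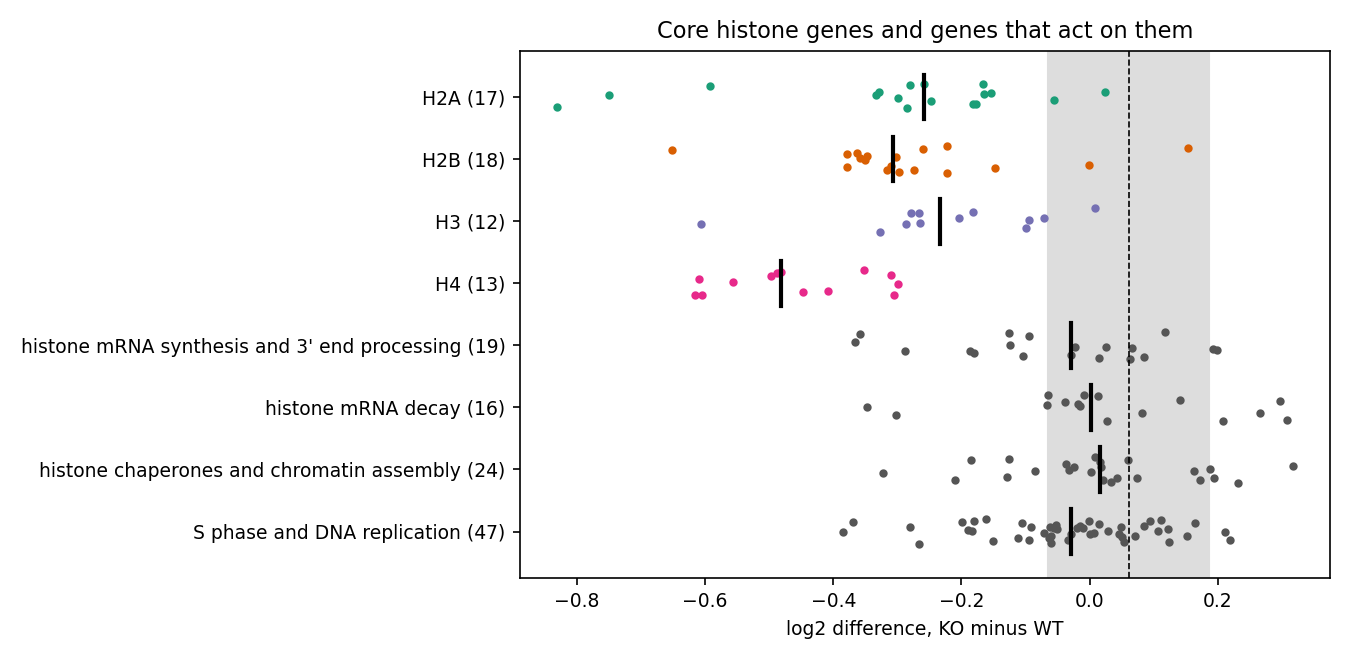
log2 difference (KO minus WT) of each tested gene of the 4 core histone classes and of 4 lists of genes that act on histones or in S phase, with the number tested in brackets, a black bar for each median, a dashed line for the median of all 11249 genes and a grey band for their quartiles, -0.06 to 0.19. The class medians run from -0.48 to -0.23 and the list medians from -0.03 to 0.02.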

How the data were processed

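The libraries were 3 from KO and 3 from WT cells. FastQC, Trimmomatic (0.39), STAR (2.7.0a), RSEM (1.2.31) and build mm9 are listed in the submitters' processing notes, while settings, annotation, read length and strand are not given there. The authors deposited FPKM for 24410 symbols, and 7372 of these had 0 in all 6 libraries. Since RSEM divides reads among similar transcripts by a model, near-identical histone genes have linked values, and per-length values of such short mRNAs depend on the fragment length assumed. A value of 0 need not mean absence.

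Titles gave the genotype. limma 3.58.1 (R 4.3.3) was fitted to log2(FPKM + 1) with a trended prior, as a two-sided test of KO minus WT. It covered the 11249 genes that reached 1 FPKM in 3 or more libraries, p-values were adjusted by Benjamini-Hochberg, and the threshold was 0.05. Changes of low genes are understated on this scale. The fit was tested on simulated data with noise independent between genes and with shifts larger than the difference of any core histone gene. That test therefore does not measure the power to call differences of their size. Sums, shares and figures came from Python 3.11.15 (pandas 2.3.3, numpy 2.4.6, matplotlib 3.10.9). Depth was estimated from steps between low FPKM values with GENCODE lengths on GRCm38, least well for KO 2, and served for no interval.

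Deviations from the group mean correlated between libraries of the same number (r of 0.81, 0.59 and 0.38 across genes), so the numbers were taken to pair the samples, and the number was also fitted as a block. What a number means, and whether samples are separate mice, is not in the labels; the spread behind the p-values is that between samples and may be technical.

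Named are Txnip; per class the 4 genes of highest mean; all of clusters 2 to 4; the 3 of smallest p and the 3 of largest change per direction (mean of at least 5 FPKM); and 3 genes of smallest p in each list of other histone and S phase genes. Marker lists are given by sums only, apart from Itga2b, Pf4 and Hba-a2, and list medians of log2 differences were -0.02 (megakaryocyte), -0.07 (granulocyte), 0.35 (monocyte), -0.20 (mast cell) and -0.30 (erythroid), with 0 genes called. The members and lists were chosen with earlier results of these data known. All 62 symbols were matched to RefSeq through older names. Alternatives were another pseudocount, 2 other filters, 4 scalings, the block, and leaving out libraries.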

Additional observations from a re-analysis of the deposited data

How the results depend on the processing

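No core histone gene was called under any of the 16 alternatives. The count of all genes called higher was 0 with no filter, with a mean of at least 5 FPKM or without KO 2 and WT 2, 2 with the replicate block (alone or with median-ratio scaling), and 0 to 1 when 1 library was left out; called lower were 1 to 2. The block changed no call of a named gene. Medians of groups that moved by more than 1 SD between libraries kept their sign: H3 was at -0.056 with a common sum and -0.047 after quantile normalization, cluster 1 at -0.11 and -0.085, and H4 at -0.20 without KO 2 and WT 2; the log2 ratio of H3 sums was -0.034 with a common sum. Signs turned for single genes, none of them called, and the cause was not tested. With a common sum the differences were 0.012 for Hist1h2ab, 0.078 for Hist1h3c, 0.12 for Hist2h2ab, 0.056 for Rmrp, 0.070 for Npat and 0.042 for Pf4. With that sum taken without Rpph1 and Rmrp, a choice made after seeing the data, they were 0.013 for Hist1h3c, 0.056 for Hist2h2ab and 0.012 for Npat. After quantile normalization they were 0.043 for Hist1h2ab, 0.084 for Hist1h3c, 0.037 for Hist1h3h, 0.20 for Rmrp and 0.048 for Pf4. Median-ratio scaling, with or without the block, gave -0.068 for Hist2h3c2 and -0.053 for Hist1h2ao. Without KO 2 and WT 2, also chosen after seeing the data, they were 0.0057 for Hist2h2bb, 0.12 for Hist2h2ab, 0.40 for Hist2h3c1, -0.00024 for Hist2h3c2, 0.10 for Hist3h2bb-ps, 0.22 for Hist4h4, 0.40 for Rpph1 and 0.43 for Rmrp. Leaving out 1 library at a time gave ranges across 0 for Hist1h2ao (-0.27 to 0.38), Hist1h2bp (-0.34 to 0.44), Hist2h2ab (-0.26 to 0.11), Hist2h2be (-0.73 to 0.14), Hist2h3c1 (-1.92 to 0.048), Hist2h3c2 (-0.23 to 0.23), Hist4h4 (-0.72 to 0.0098), Lsm5 (-0.52 to 0.0094), Upf1 (-0.059 to 0.64), Slbp (-0.023 to 0.19), Pf4 (-0.62 to 0.26), Rpph1 (-0.95 to 0.28) and Rmrp (-0.49 to 0.21). The median of the core histone genes ranged from -0.45 without WT 3 to -0.17 without WT 2.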
